A study of Homo sapiens with 6 samples.

Results

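The Hippo pathway and its transcriptional output were examined at the RNA level in H526 cells, a human small cell lung cancer (SCLC) line, and in H526 cells that had acquired resistance to onvansertib, an inhibitor of the mitotic kinase PLK1. The set consisted of 10 genes listed by name, out of 62710 rows of the expression table: the coactivators *YAP1* and *WWTR1*, the DNA-binding partners *TEAD1*, *TEAD2*, *TEAD3* and *TEAD4*, the kinases *LATS1* and *LATS2*, and the target genes *CCN1* and *CCN2*. All 10 were found, and 8 of them had a mean normalized value of at least 10 over the 6 libraries and were tested. Parental H526 cells were represented by libraries 1, 2 and 3. Resistant H526 cells, selected for more than a year in onvansertib raised stepwise from 10 nM to 75 nM, were represented by libraries 7, 8 and 9. Whether parental cells received vehicle or were cultured for as long is not given in the sources used here. Nor is it given whether onvansertib was present when RNA of the resistant cells was taken. Both groups come from the same cell line, and total RNA was taken on 3 separate occasions. The labels do not name clones or separate selections, so the spread between libraries may be technical and the p-values measure only that spread. The comparison was set up to look for genes that accompany acquired PLK1 inhibitor resistance, and the study also separates SCLC by subtype factors, of which YAP1 is one. Across SCLC lines it associates *YAP1* expression with greater efficacy of PLK1 inhibitors and proposes that the YAP1 subtype may be more sensitive. That comparison is between lines, not between parental and resistant cells of the same line.

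The Hippo pathway is a kinase cascade that restrains tissue growth. The MST kinases, encoded by *STK3* and *STK4*, activate LATS1 and LATS2, which phosphorylate YAP and its paralog TAZ (the product of *WWTR1*), so that these coactivators are held by 14-3-3 proteins in the cytoplasm or degraded. When the kinases are inactive, YAP and TAZ enter the nucleus, bind TEAD factors and raise the transcription of targets such as *CCN1*, *CCN2* and *LATS2* itself. In SCLC, YAP1 is commonly low in neuroendocrine tumours and is found in non-neuroendocrine ones. RNA levels do not report the phosphorylation or the location of these proteins.

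TEAD factors recognise the letters GGAATG, here searched together with the complement CATTCC in the 250 bases before the transcription start of the members in the RefSeq sequences (GRCh38.p14). A window was present for 7 of the 10 members, in 10 windows in all, and none was at hand for *CCN1*, *TEAD1* and *TEAD4*. The 2 member windows with a match are printed because they belong to the best known target and to the coactivator gene itself. The window of *CCN2* lies at chr6:131951373-131951622 on the minus strand and that of *YAP1* at chr11:102110197-102110446 on the plus strand. Both are written 5′ to 3′ with the matches in capitals.
CCN2: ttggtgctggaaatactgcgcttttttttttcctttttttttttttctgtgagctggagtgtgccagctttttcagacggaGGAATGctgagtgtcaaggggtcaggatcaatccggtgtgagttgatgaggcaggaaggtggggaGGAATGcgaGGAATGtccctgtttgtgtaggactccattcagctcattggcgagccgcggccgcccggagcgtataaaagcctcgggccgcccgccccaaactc
YAP1: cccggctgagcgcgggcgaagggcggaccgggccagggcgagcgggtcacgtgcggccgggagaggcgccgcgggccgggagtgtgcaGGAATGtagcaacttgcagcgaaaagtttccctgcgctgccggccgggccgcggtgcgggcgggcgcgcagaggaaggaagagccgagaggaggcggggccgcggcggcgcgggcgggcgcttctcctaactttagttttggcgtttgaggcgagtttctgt
The *CCN2* window held 3 matches, which began 169, 104 and 95 bases before the start, and the *YAP1* window held 1, which began 162 bases before it. Of 35116 windows of the same length, 4175 (11.9%) held at least 1 match and 29 (0.0826%) held at least 3. No match was found in the windows of *WWTR1*, *TEAD2*, *TEAD3*, *LATS1* and *LATS2*, which says only that these letters are not in those windows. A match describes the sequence, and binding was not measured.

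Values are gene counts that the authors normalized between libraries, with no unit of their own. Read depth was estimated from the step between low values that was taken as 1 read. The estimates lay between 25721075 and 28541803 reads in parental and between 22368929 and 23255052 in resistant cells. By the same step 3 reads, taken as the limit of detection, corresponded to a value between 2.67 and 3.22. Of the markers of the line, *POU2F3*, the tuft cell factor, had a value of 25809 in parental and 27273 in resistant cells (log2 fold change 0.08, adjusted p = 0.304), while *NEUROD1*, a factor of neuroendocrine SCLC, did not exceed 5.49 in any library. Other neuroendocrine markers were expressed in parental cells and lower in resistant cells, with means of 6091 and 1253 for *INSM1*, 1334 and 301 for *SYP*, 254 and 12.8 for *CHGA* and 241 and 16.8 for *CHGB*. Log2 fold changes are resistant over parental on log2(value + 1), so that they understate the change of genes with low values, and were called where limma, adjusted over all 16347 genes tested by the method of Benjamini and Hochberg, gave p under 0.05. An exact permutation test (two-sided) on 3 libraries against 3 has 0.1 as its smallest p. In these bulk RNA samples, fewer cells with a transcript and less of it per cell cannot be told apart.

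Between parental and resistant cells, 2 of the 8 tested members rose, 1 fell and 5 did not pass the threshold. *YAP1* and *LATS2* were higher in resistant cells and *TEAD1* was lower. Over all genes tested, 37.7% passed the threshold, 17.8% as higher and 19.8% as lower, so that the 37.5% among the members lay near the background. For 4 of the 8 the parental and resistant values were without overlap, against 49.9% of all genes tested. The median log2 fold change of the 8 was 0.24, against -0.00086 over all genes tested. Without resistant library 8 the number of members that rose was 1, and without resistant library 9 it was 3 and the number that fell was 0.

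**Figure D1:**
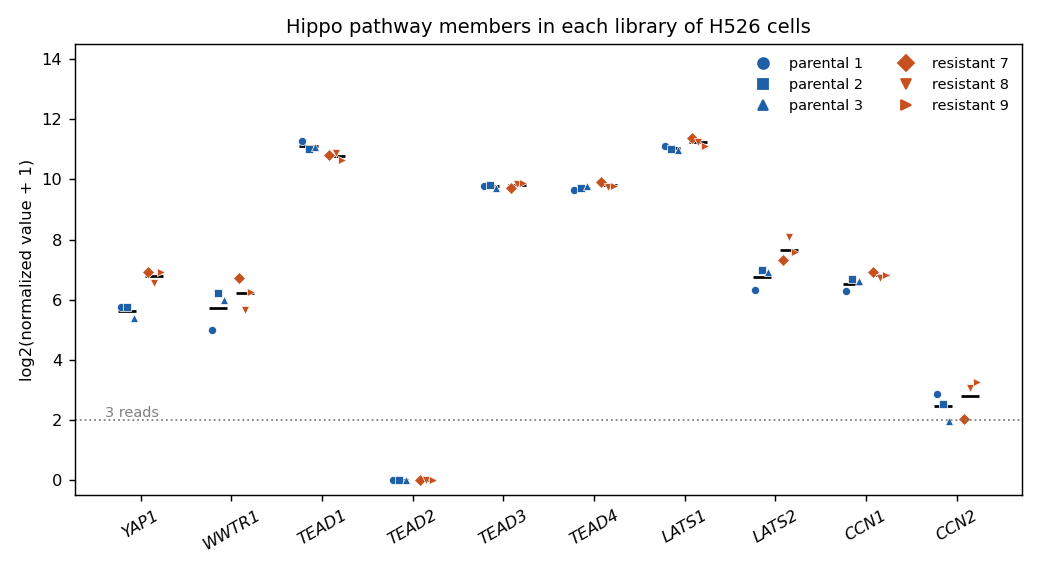
Normalized values of the 10 members in each library, as log2(value + 1), with 3 parental libraries (blue) and 3 resistant libraries (orange); black lines are the means of the log2 values and the dotted line is the value of 3 reads. *YAP1* and *LATS2* lie higher in all 3 resistant libraries, *TEAD1* lies lower, *TEAD2* is at 0 throughout and *CCN2* is close to the limit of detection.

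*YAP1* (ENSG00000137693, chromosome 11, 102110447 to 102233424 on GRCh38) encodes the coactivator that the Hippo kinases restrain. It had normalized values of 52.9, 52.7 and 40.9 in parental libraries 1, 2 and 3 and of 120, 92.6 and 121 in resistant libraries 7, 8 and 9. Every resistant library lay above every parental one, and library 8 was the lowest of the resistant group. The mean was 48.9 ± 6.86 (SD, n = 3) in parental and 111 ± 16.1 (SD, n = 3) in resistant cells, 2.28-fold higher, with a log2 fold change of 1.17 (95% CI 0.68 to 1.66, limma adjusted p = 0.00236; exact permutation p = 0.1). For the 50 nearest tested genes on chromosome 11 the median was 0.07. The log2 fold change of *YAP1* was at the percentile 94.3 of all genes tested, whereas its level per kilobase was at the percentile 11.9 in parental and 20.1 in resistant cells among the 16337 genes ranked. The transcript was thus among the lower expressed ones in both groups. The exons of *YAP1* overlap those of 2 RNA genes on the opposite strand, which had values of at most 1.05.

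Since *YAP1* is commonly high in mesenchymal cells, 13 markers of mesenchymal cells or fibroblasts were read in the same libraries. Their summed value ranged from 3808 to 4454 in parental and from 4148 to 5033 in resistant cells, most of it from *THY1* (log2 fold change 0.02, adjusted p = 0.888). Of the 8 that were tested, 3 rose, namely *COL1A1* from 59.7 to 269, *COL1A2* from 86.0 to 201 and *COL6A3* from 113 to 193. This was 37.5%, near the 37.7% called over all genes tested, and the values of *COL6A3* overlapped between the groups. *COL3A1* (log2 fold change -0.73, limma adjusted p = 0.247) and *FN1* (-0.39, limma adjusted p = 0.421) leaned lower and did not pass the threshold. The other 5 markers were under the minimum mean. Of these, *DCN* and *POSTN* did not exceed 3.11 and 1.75 in any library. *LUM* reached 13.0 in parental library 1, *SPARC* 12.2 in resistant library 8 and *PDGFRB* 27.5 in resistant library 9. Of 5 endothelial markers only *VWF* was tested, and it rose from 276 to 465, while *CDH5* was listed at 0 in every library and *PECAM1* did not exceed 0.20. The part of these genes in the rise of *YAP1* was not tested.

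*WWTR1* (ENSG00000018408, chromosome 3, 149517235 to 149736714) encodes TAZ, the paralog of YAP. Its values were 31.1, 73.0 and 62.1 in parental libraries 1, 2 and 3 and 105, 49.8 and 75.0 in resistant libraries 7, 8 and 9. The groups overlapped, with the lowest parental library at less than the lowest resistant one and resistant library 8 below 2 of the parental libraries. The log2 fold change of 0.48 had a 95% CI of -0.33 to 1.29 (limma adjusted p = 0.33; exact permutation p = 0.4), an interval that includes no change as well as one of the size of *YAP1*. It was 0.12 without parental library 1 and 0.75 without resistant library 8, and past the threshold in neither case. Exons of *WWTR1* share 756 bases with the antisense gene *WWTR1-AS1*, which reached at most 4.65. Since the counting is not stated to use strand, reads of overlapping genes on opposite strands cannot be told apart.

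Per kilobase of the longest transcript, the log2 ratio of *WWTR1* over *YAP1* was -0.67, 0.57 and 0.70 in parental libraries 1, 2 and 3 and -0.10, -0.79 and -0.59 in resistant libraries 7, 8 and 9. The ratios of the groups overlapped, and the difference in means of -0.70 was not past the threshold (exact permutation p = 0.3, adjusted p = 0.525 over 7 ratios). *YAP1* accounted for 46.6% ± 12.9 (SD, n = 3) of the sum of both coactivators per kilobase in parental and 58.4% ± 5.98 (SD, n = 3) in resistant cells. These shares, and which coactivator ranks higher in parental cells, depend on the length used. The longest transcripts have 5401 bases for *YAP1* and 5037 for *WWTR1*, whereas all exons together cover 6311 and 8353 bases.

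The TEAD factors carry the DNA-binding domain through which YAP and TAZ reach their targets. *TEAD1* (ENSG00000187079, chromosome 11, 12674421 to 12944737) had values of 2489, 2057 and 2139 in parental libraries 1, 2 and 3 and of 1801, 1877 and 1604 in resistant libraries 7, 8 and 9. All resistant libraries lay below all parental ones. The mean went from 2228 ± 230 (SD, n = 3) to 1761 ± 141 (SD, n = 3), a change of -21.0%, with a log2 fold change of -0.34 (95% CI -0.54 to -0.13, limma adjusted p = 0.0157; exact permutation p = 0.1). Its 50 neighbours on chromosome 11 had a median of 0.03. The call rested on resistant library 9, without which the log2 fold change was -0.27 (adjusted p = 0.0583), and on the intensity trend of the model, without which the adjusted p was 0.0655.

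*TEAD3* (ENSG00000007866, chromosome 6, 35473597 to 35497079) had values of 869, 901 and 844 in parental libraries 1, 2 and 3 and of 844, 920 and 936 in resistant libraries 7, 8 and 9. *TEAD4* (ENSG00000197905, chromosome 12, 2959330 to 3040676) had 810, 836 and 872 against 961, 853 and 881. For both genes the groups overlapped. The log2 fold change was 0.05 for *TEAD3* (95% CI -0.14 to 0.23, limma adjusted p = 0.699) and 0.10 for *TEAD4* (95% CI -0.09 to 0.29, adjusted p = 0.401). *TEAD2* (ENSG00000074219, chromosome 19, 49340595 to 49362457), a TEAD of early embryonic and neural tissue, was listed at 0 in all 6 libraries, which at this depth allows a value of up to 3.22 in a library.

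The summed TEAD level differed between the groups by less than the SD of either. Per kilobase, the values summed to 1019 ± 10.2 (SD, n = 3) in parental and 1014 ± 19.3 (SD, n = 3) in resistant cells. *TEAD1* made up 25.7%, 21.7% and 22.3% of that sum in parental libraries 1, 2 and 3 and 18.5%, 19.8% and 17.0% in resistant libraries 7, 8 and 9, a difference in means of -4.77 percentage points without overlap between the groups. *TEAD4* made up 48.2% ± 2.01 (SD, n = 3) and 51.8% ± 2.35 (SD, n = 3), and *TEAD3* 28.6% ± 1.13 (SD, n = 3) and 29.8% ± 2.18 (SD, n = 3). By the exact permutation test the p was 0.1 for *TEAD1*, 0.2 for *TEAD4* and 0.5 for *TEAD3*, and none passed after adjustment over the 7 ratios (0.525, 0.525 and 0.7), a threshold that 3 libraries against 3 cannot reach. The coactivators were scarce beside the factors they bind. *YAP1* and *WWTR1* together came to 1.55%, 2.40% and 1.95% of the TEAD sum per kilobase in parental and to 4.16%, 2.69% and 3.73% in resistant libraries, with no overlap between the groups.

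**Figure D2:**
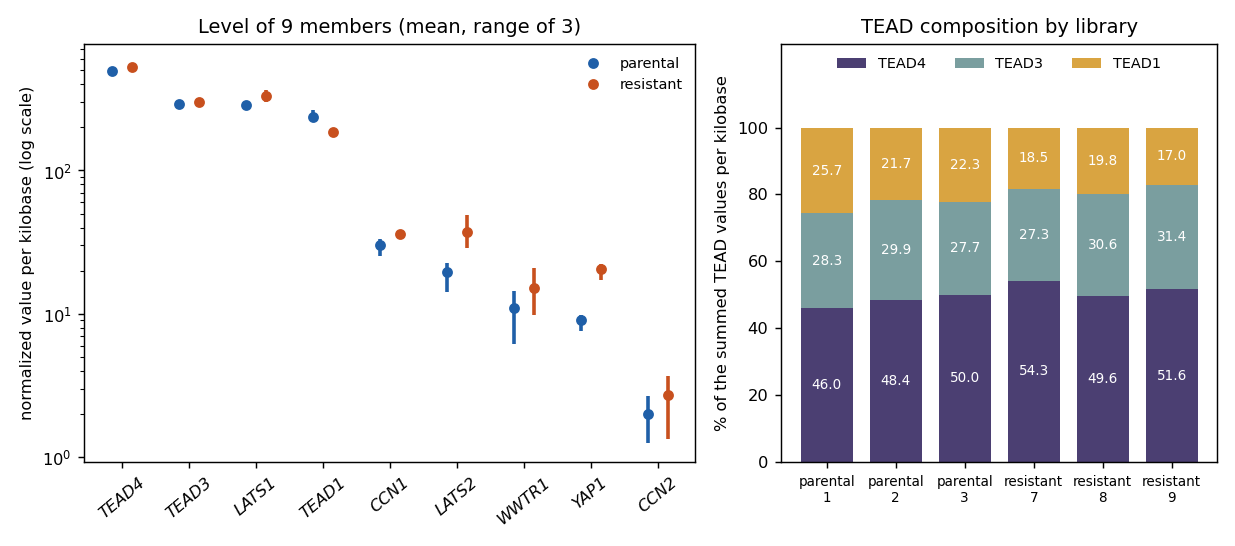
Left, mean normalized value per kilobase of the longest transcript on a log axis for the 9 members with reads, with vertical bars from the lowest to the highest of 3 libraries; right, the share of each TEAD gene in the summed TEAD values per kilobase of every library. *YAP1* and *WWTR1* sit far below the TEAD genes in both groups, and the *TEAD1* share is between 21.7% and 25.7% in parental and between 17.0% and 19.8% in resistant libraries.

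The LATS kinases phosphorylate YAP and TAZ. *LATS1* (ENSG00000131023, chromosome 6, 149658153 to 149718105) had values of 2229, 2053 and 2015 in parental libraries 1, 2 and 3 and of 2670, 2427 and 2212 in resistant libraries 7, 8 and 9. Resistant library 9 lay just under parental library 1, so the groups overlapped. The log2 fold change of 0.21 (95% CI 0.03 to 0.40) had an adjusted p of 0.0687 by limma and an exact permutation p of 0.2. Without resistant library 9 it was 0.28 (adjusted p = 0.0324), and it also passed the threshold when libraries were set to the same total (0.28, adjusted p = 0.0197) or quantile normalized (0.24, adjusted p = 0.0361). An antisense RNA gene that shares 257 exonic bases with *LATS1* (ENSG00000278899) reached at most 9.37.

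*LATS2* (ENSG00000150457, chromosome 13, 20973036 to 21061586) is both a kinase of the pathway and a target of YAP, through which the pathway feeds back on itself. It had values of 78.3, 126 and 121 in parental libraries 1, 2 and 3 and of 159, 272 and 191 in resistant libraries 7, 8 and 9. The groups did not overlap, and resistant library 8 stood highest. The mean went from 108 ± 26.2 (SD, n = 3) to 207 ± 58.0 (SD, n = 3), 1.91-fold, with a log2 fold change of 0.92 (95% CI 0.38 to 1.47, limma adjusted p = 0.0140; exact permutation p = 0.1). The call was lost without resistant library 8 (log2 fold change 0.71, adjusted p = 0.0614) and when each value was centred on its chromosomal neighbours (0.71, adjusted p = 0.0605). Those neighbours, 39 tested genes, had a median of 0.21. *LATS2* made up 6.46% ± 1.74 (SD, n = 3) of the LATS sum per kilobase in parental and 10.2% ± 2.80 (SD, n = 3) in resistant cells, and the log2 ratio of *LATS2* over *LATS1* was -3.90 and -3.18 (exact permutation p = 0.3, adjusted p = 0.525 over 7 ratios).

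*CCN1* and *CCN2* encode secreted matricellular proteins and are the targets most used to read YAP and TAZ activity. *CCN1* (ENSG00000142871, chromosome 1, 85580761 to 85584589) had values of 77.6, 102 and 98.1 in parental libraries 1, 2 and 3 and of 119, 105 and 111 in resistant libraries 7, 8 and 9. The groups did not overlap but lay close, with parental library 2 just under resistant library 8. The log2 fold change of 0.28 (95% CI -0.15 to 0.70) did not pass the threshold (limma adjusted p = 0.282; exact permutation p = 0.1).

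*CCN2* (ENSG00000118523, chromosome 6, 131948176 to 131951372), the gene whose promoter window holds 3 TEAD motifs, was barely detected. It had values of 6.24, 4.85 and 2.95 in parental libraries 1, 2 and 3 and of 3.13, 7.29 and 8.62 in resistant libraries 7, 8 and 9. The groups overlapped, and resistant library 7 was at the level of 3 reads. With a mean of 5.51 it was not tested by limma, and its exact permutation p was 0.5. The log2 ratio of *CCN1* over *CCN2* per kilobase was 3.97 in parental and 3.87 in resistant cells (exact permutation p = 1).

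Ordered by level per kilobase of the longest transcript, the members split into an abundant and a scarce group in both conditions. In parental cells *TEAD4* was highest (491), followed by *TEAD3* (292) and *LATS1* (285), whose ranges overlapped, and by *TEAD1* (237). After a wide gap came *CCN1* (30.1), and then *LATS2* (19.5), *WWTR1* (11.0) and *YAP1* (9.05), each overlapping in range with the next, and *CCN2*, with a range of 1.26 to 2.67. In resistant cells the abundant group was *TEAD4* (525), *LATS1* (331), *TEAD3* (301) and *TEAD1* (187), with overlapping ranges for *LATS1* and *TEAD3*. *LATS2* (37.4) and *CCN1* (36.3) overlapped, as did *YAP1* (20.6) and *WWTR1* (15.2), and *CCN2* (1.34 to 3.69) was last of the genes with reads.

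The wider pathway was read from lists of 98 further genes, of which 85 were tested. Of the latter, 24 rose, 20 fell and 41 did not pass the threshold, so that 51.8% were called against 37.7% of all genes tested, and their median log2 fold change was 0.07. With a minimum mean of 50, 43 of 80 were called, against 5579 of 13179 over all genes. The lists were chosen with earlier results of these data known, so the difference from all genes is not independent of these data.

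**Figure D3:**
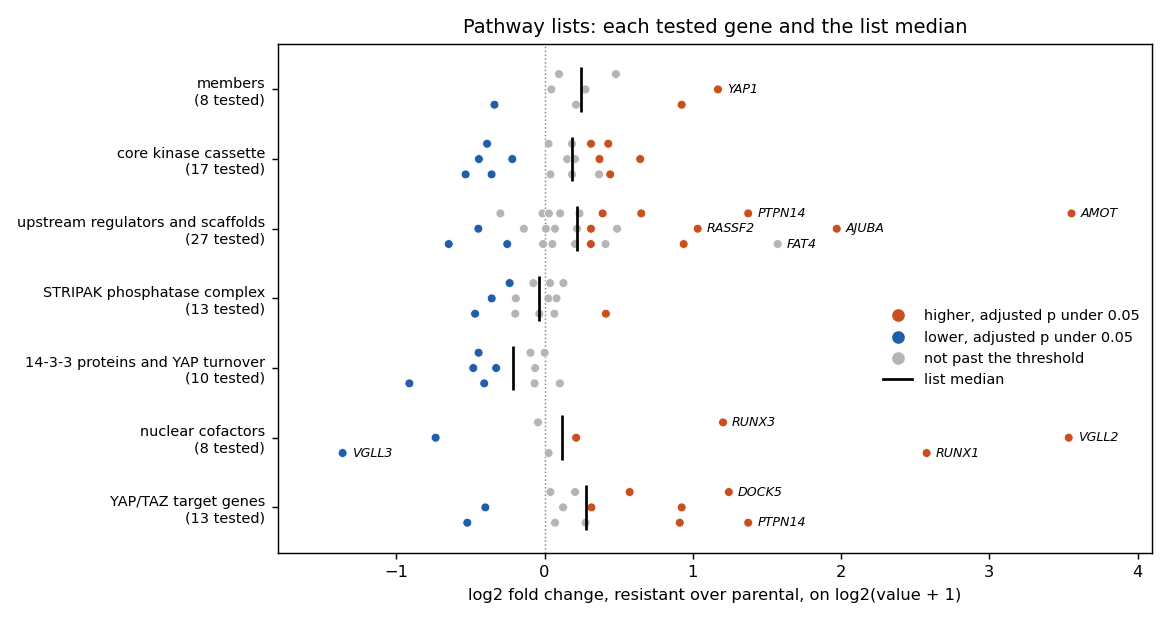
Log2 fold change of each tested gene of the members and of 6 pathway lists, one dot per gene, coloured by the limma call, with black bars at the list medians; dots are offset vertically for legibility. The medians lie between -0.21, for the 14-3-3 and turnover list, and 0.28, for the target genes.

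The core kinase cassette, from the MST and related kinases to their MOB and SAV1 adaptors, held 17 genes, all tested. Of these, 5 rose, 5 fell and 7 did not pass the threshold (median log2 fold change 0.18), so that 58.8% were called against 37.7% of all genes tested. The MST kinases and most of their partners were among the 7: *STK3* had a log2 fold change of 0.37 (adjusted p = 0.0539), *STK4* of 0.04 (adjusted p = 0.684), the scaffold *SAV1* of 0.19 (adjusted p = 0.149) and the LATS activator *MOB1A* of 0.18 (adjusted p = 0.0787). *MOB1B*, its paralog, rose from 1425 ± 151 to 1914 ± 98.1 (SD, n = 3; log2 fold change 0.43, adjusted p = 0.00371). The MAP4K kinases, which phosphorylate LATS beside the MST kinases, moved in both directions. *MAP4K5* rose from 2051 ± 149 to 3203 ± 122 (log2 fold change 0.65, adjusted p = 0.000106; 0.38 when centred on its neighbours) and *TNIK* from 1105 to 1504 (0.44). *MAP4K1* fell from 1802 ± 97.8 to 1266 ± 288 (-0.53) and *MAP4K4* from 4303 to 3355 (-0.36), but neither passed the threshold without the intensity trend (adjusted p = 0.0688 and 0.0525). Among the TAO kinases, which act above MST, *TAOK1* rose (0.31), while *TAOK2* (-0.39) and *TAOK3* (-0.44) fell. The neighbours of *TAOK3* on chromosome 12 had a median of -0.50, and its log2 fold change became 0.05 when centred on them. That of *TAOK2* became -0.08 (adjusted p = 0.418). *TAOK1* lost its call without parental library 3 (0.29, adjusted p = 0.0705), resistant library 7 (0.24, adjusted p = 0.0729) or resistant library 8 (0.28, adjusted p = 0.0685). It was not past the threshold without the intensity trend either (adjusted p = 0.0836). *STK3* passed the threshold without resistant library 9 (0.46, adjusted p = 0.0367). It also passed with quantile normalization (0.40, adjusted p = 0.0381), equal totals (0.43, adjusted p = 0.0265) or a minimum mean of 50 (adjusted p = 0.0489). *MOB1A* passed with quantile normalization (0.23, adjusted p = 0.0264), equal totals (0.25, adjusted p = 0.0172) or when centred on its neighbours (0.31, adjusted p = 0.0130).

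Upstream regulators and scaffolds link the cascade to cell junctions, polarity complexes and the cytoskeleton. Of 27 genes, all tested, 9 rose, 3 fell and 15 did not pass the threshold (median log2 fold change 0.22). The share called was 44.4%, against 37.7% of all genes tested. *NF2*, the tumour suppressor that recruits LATS to the membrane, was at 0.11 (adjusted p = 0.301) and the junction scaffold *AMOTL2* at 0.21 (adjusted p = 0.389). The rise with the smallest p was that of *WWC2*, a paralog of the LATS activator KIBRA, from 1610 ± 118 to 3081 ± 94.2 (SD, n = 3; log2 fold change 0.94, adjusted p = 1.02e-05). *PTPN14*, a phosphatase that binds YAP and is also in the target list, had values of 276, 377 and 353 in parental and of 846, 927 and 817 in resistant libraries. These groups were far apart (log2 fold change 1.37, adjusted p = 3.1e-05). *AJUBA*, a LIM protein that inhibits LATS, rose from 408 ± 203 to 1480 ± 182 (1.97, adjusted p = 0.000436), with chromosomal neighbours at a median of 0.46, and *RASSF2* rose from 353 to 721 (1.03). The list thus held both inhibitors and activators of the cascade among the genes that rose. *FAT1*, an atypical cadherin upstream of the cascade, fell from 2318 ± 168 to 1479 ± 64.2 (-0.65, adjusted p = 0.000137), *RASSF1* fell from 522 to 383 (-0.45) and the polarity gene *SCRIB* by 0.25 on the log2 scale, a call that was lost with quantile normalization (-0.11, adjusted p = 0.168). The angiomotin gene *AMOT*, with 0, 4.31 and 0 in parental and 10.2, 25.5 and 27.9 in resistant libraries, was singled out after its values were seen. It was called higher (adjusted p = 0.00497), and since 2 parental libraries were at 0, no fold is given.

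The STRIPAK phosphatase complex removes the activating phosphate from MST kinases. Of its 13 genes, all tested, 1 rose, 3 fell and 9 did not pass the threshold (median log2 fold change -0.04). The share called, 30.8%, was below the 37.7% of all genes tested. *STRN3* rose by 0.41, beside neighbours with a median of 0.39, and was at 0.02 (adjusted p = 0.89) when centred on them. The scaffold *PPP2R1A* fell from 20316 ± 696 to 15867 ± 438 (SD, n = 3; log2 fold change -0.36, adjusted p = 0.000774), but its neighbours on chromosome 19 had a median of -0.51, and centred on them it was at 0.18 (adjusted p = 0.0405). The catalytic subunit *PPP2CA* (-0.24, adjusted p = 0.0194) and *STRIP2* (-0.47, adjusted p = 0.0325) also fell. Without parental library 1 or parental library 3 the list had 2 calls: *PPP2CA* was then at -0.20 (adjusted p = 0.054) or -0.23 (adjusted p = 0.0643), and *STRIP2* at -0.51 (adjusted p = 0.0525) or -0.49 (adjusted p = 0.0677). *PPP2CA* also lost its call without resistant library 8 (-0.20, adjusted p = 0.0733) or without the intensity trend (adjusted p = 0.0754). *STRIP2* also lost its call without parental library 2 (-0.41, adjusted p = 0.0949), resistant library 7 (-0.47, adjusted p = 0.0693) or resistant library 9 (-0.34, adjusted p = 0.11). *STRIP2* was not past the threshold either with equal totals (-0.40, adjusted p = 0.0648), without the trend (adjusted p = 0.0598) or when centred on its neighbours (-0.18, adjusted p = 0.344), whose median was -0.20.

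The 14-3-3 proteins hold phosphorylated YAP and TAZ outside the nucleus, and beta-TrCP marks them for degradation. Of 11 genes of this list 10 were tested, and 5 fell, none rose and 5 did not pass the threshold (median log2 fold change -0.21). The share called was 50%, against 37.7% of all genes tested. The 14-3-3 genes that fell were *YWHAZ*, from 38479 to 30683 (log2 fold change -0.33), *YWHAE*, from 17122 to 12578 (-0.45), *YWHAG*, from 16546 to 11851 (-0.48), and *YWHAQ*, from 16677 to 12563 (-0.41). Neighbours of *YWHAG* had a median of -0.44, and centred on them it was at -0.10 (adjusted p = 0.217). *FBXW11*, which encodes a beta-TrCP, had values of 2054, 2008 and 2087 in parental and of 1101, 1191 and 984 in resistant libraries. It fell by 0.91 on the log2 scale (adjusted p = 2.7e-05), with neighbours at -0.26. The other beta-TrCP gene, *BTRC*, did not pass the threshold (0.10, limma adjusted p = 0.564). Neither did *CSNK1D* (-0.06, limma adjusted p = 0.437) and *CSNK1E* (0.00081, limma adjusted p = 0.994) of the same list.

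Nuclear cofactors compete with YAP for TEAD or cooperate with it. Of 9 genes 8 were tested, and 4 rose, 2 fell and 2 did not pass the threshold (median log2 fold change 0.12). The share called was 75%, against 37.7% of all genes tested. The RUNX factors, which can bind YAP, were split. *RUNX1* had values of 718, 988 and 1289 in parental and of 5659, 6212 and 5537 in resistant libraries, 5.81-fold higher (log2 fold change 2.58, adjusted p = 3.4e-06). Its neighbours on chromosome 21 had a median of 1.00, and centred on them its log2 fold change was 1.60. *RUNX3* rose from 631 ± 91.9 to 1450 ± 172 (1.20, adjusted p = 5.13e-05) and *RUNX2* fell from 1571 ± 36.5 to 947 ± 91.3 (-0.73, adjusted p = 0.000137). The vestigial-like proteins bind TEAD in place of YAP. *VGLL3* fell from 2024, 1450 and 1658 to 790, 525 and 689 (-1.36, adjusted p = 0.000119), whereas *VGLL4*, the best known competitor of YAP, was at 0.03 (adjusted p = 0.824). *VGLL2*, with 2.31, 0.92 and 4.66 in parental and 25.8, 35.6 and 56.2 in resistant libraries, was called higher (adjusted p = 0.000586), though its fitted log2 fold change ranged from 1.93 to 4.04 over the alternatives. The coactivator *WBP2* rose by 0.21 on the log2 scale (adjusted p = 0.0152). That call was lost without parental library 3 (0.20, adjusted p = 0.066), without resistant library 9 (0.20, adjusted p = 0.0536) or without the intensity trend (adjusted p = 0.0598).

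**Figure D4:**
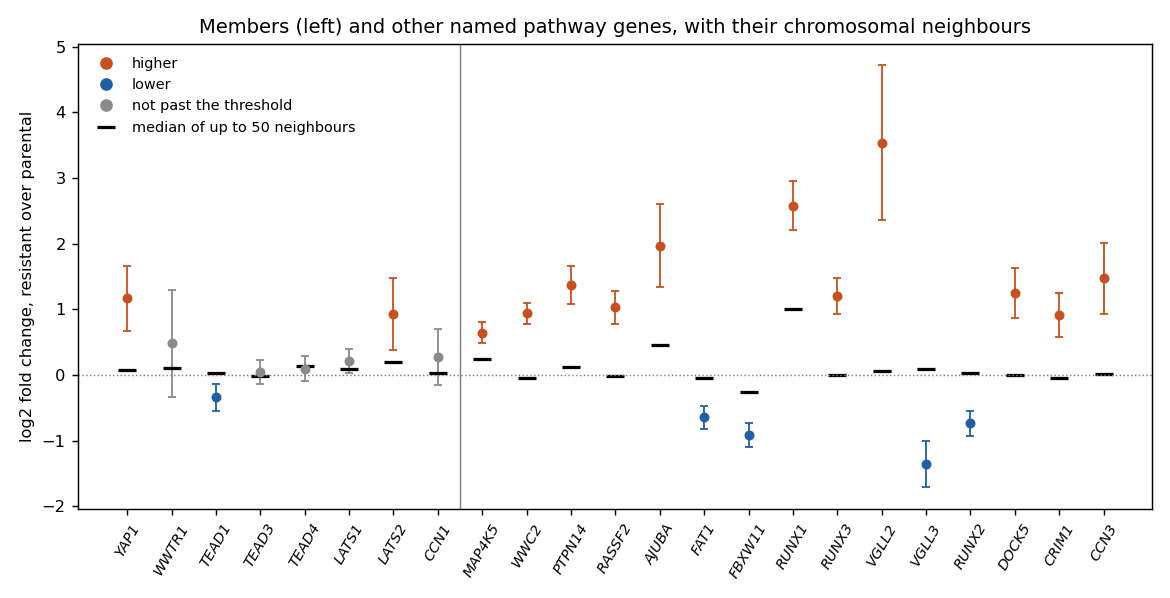
Log2 fold changes with 95% confidence intervals for the 8 tested members (left of the line) and for the other named pathway genes with the larger changes, coloured by the limma call, with black dashes at the median of up to 50 nearest tested genes on the same chromosome. The neighbours of *YAP1* and *TEAD1* are near 0 (0.07 and 0.03), while those of *RUNX1* are at 1.00.

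The list of YAP and TAZ target genes held 22 genes, of which 13 were tested. Of these, 6 rose, 2 fell and 5 did not pass the threshold (median log2 fold change 0.28), so that 61.5% were called against 37.7% of all genes tested. The list of 22 includes *LATS2*, *CCN1* and *CCN2*. The other 9 were under the minimum mean, among them *ANKRD1*, listed at 0 in 5 libraries and at 1.04 in resistant library 7, and *AXL*, listed at 0 in all 6. The targets that rose were, beside *LATS2* and *PTPN14*, the guanine exchange factors *DOCK5*, from 104 ± 15.7 to 246 ± 24.6 (SD, n = 3; log2 fold change 1.24, adjusted p = 0.000352), and *ARHGEF17*, by 0.32 on the log2 scale, the membrane protein *CRIM1*, from 519 ± 84.2 to 980 ± 172 (0.91, adjusted p = 0.000959), and *ASAP1*, from 1821 to 2710 (0.57). *FJX1* (-0.52) and *GLS2* (-0.40) fell, and *FJX1* lost its call without parental library 2 (-0.48, adjusted p = 0.0501) or resistant library 7 (-0.48, adjusted p = 0.0514). *GLS2*, whose place as a YAP or TAZ target was not checked here, was at 0.17 when centred on its neighbours, whose median was -0.65. Among the other CCN genes *CCN3* had values of 188, 266 and 250 in parental and of 1004, 506 and 528 in resistant libraries (log2 fold change 1.47, adjusted p = 0.00106), and it was the only one of 4 to be tested.

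The rise of *YAP1* kept its side of the threshold under all 14 alternative ways of processing, with log2 fold changes from 1.01 to 1.295 and adjusted p from 0.00192 to 0.0125.

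**Figure D5:**
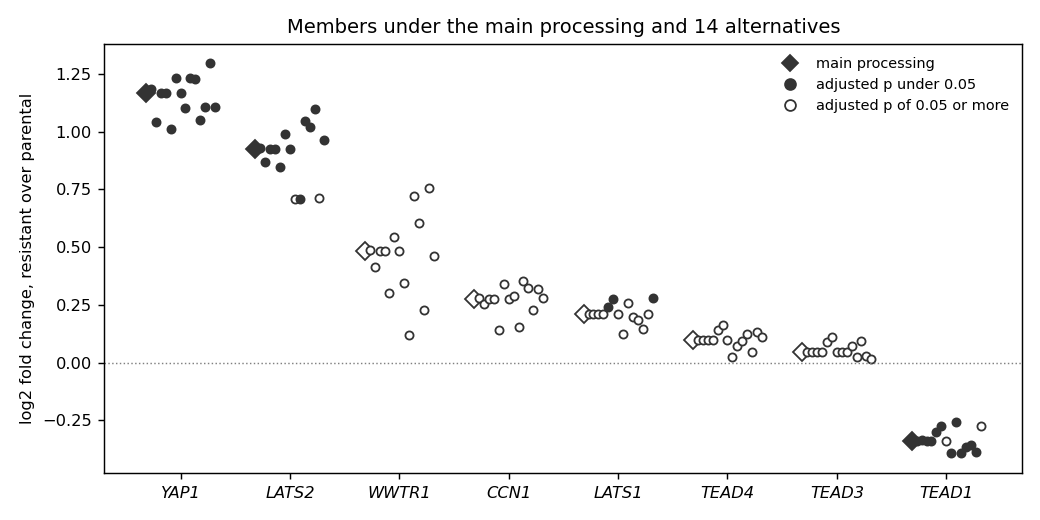
Log2 fold change of each tested member under the reported processing (diamonds) and 14 alternatives (circles), filled where the limma adjusted p is under 0.05. *YAP1* is filled throughout, between 1.01 and 1.295, whereas *LATS2*, *LATS1* and *TEAD1* cross the threshold in some settings.

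The genes whose pattern over the 6 libraries was most like that of *YAP1* on the log2(value + 1) scale were *TOR1AIP1*, *SCAMP2* and *SEC23B*, with Pearson correlations of 0.998, 0.998 and 0.996. They are not particular to these genes, since 1455 tested genes had a correlation above 0.9. The values describe 6 points that fall into 2 groups and share their libraries.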

How the data were processed

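RNA of 3 parental and 3 onvansertib-resistant H526 libraries was sequenced. The authors trimmed reads with Trimmomatic 0.38, quantified them with RSEM 1.3.1 (STAR is also named in the submitters' processing notes) on GRCh38 with Gencode v43, and normalized the counts with DESeq2 1.30.0. The deposited values are thus a normalized signal per gene and library, not counts. Only 53.1% to 63.6% of values under 6 were whole multiples (within 0.05 read) of the value of 1 read, so whole reads were not recovered and no count model was used. The depths are estimates from that value, and limits of 3 reads cover counting error only. The 47 second copies of pseudoautosomal genes, identical to the first, were left out of 62757 rows. Symbols, coordinates and transcript lengths came from Gencode v44 (62639 of 62710 identifiers).

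Genes with a mean of at least 10 were compared by limma 3.58.1 in R 4.3.3, as log2(value + 1) (intensity trend, condition as the only term, Benjamini-Hochberg threshold 0.05), and the script was tested on simulated data. Ratios per kilobase and single genes had exact two-sided permutation tests. Neighbours were up to 25 tested genes on each side. Other settings were a pseudocount of 0.1 or 10, a minimum mean of 50 or none, quantile normalization, equal totals, no trend, centring on a window of 51 genes, and leaving out each library. Named were all members, the core genes *STK3*, *STK4*, *SAV1*, *MOB1A*, *MOB1B*, *NF2*, *VGLL4*, *AMOTL2*, *ANKRD1* and *AXL*, up to 4 genes per list and direction with the smallest p, subtype factors (1 is not reported here), and the 3 genes most like *YAP1*; other genes named were chosen after their values were seen. Members and lists were chosen with earlier results of these data known. Figures were drawn with matplotlib 3.10.9 and tables made with pandas 2.3.3 and numpy 2.4.6 in Python 3.11.15.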

Additional observations from a re-analysis of the deposited data

How the results depend on the processing

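Of 112 recomputed log2 fold changes of members, 105 kept their direction and side of the threshold, 4 lost it, 3 gained it and 0 changed sign. The number of members higher in resistant cells was 1 with local median centring and 1 to 3 when a library was left out. The number lower was 0 without the intensity trend and 0 to 1 when a library was left out. *TEAD1* was at -0.34 (adjusted p = 0.0655) without the trend and between -0.39 and -0.26 with a library left out. *LATS2* was at 0.71 (adjusted p = 0.0605) with local centring and between 0.71 and 1.10 with a library left out. *LATS1* was past the threshold at 0.24 with quantile normalization and at 0.28 with equal totals, and lay between 0.14 and 0.28 with a library left out. The causes were not tested. Among the other named genes, 557 of 601 values kept direction and side, 27 lost their call, 9 gained one and 8 changed sign. The sign changed for *SAV1* (-0.083), *VGLL4* (-0.033), *POU2F3* (-0.0099), *TAOK3* (0.051), *PPP2R1A* (0.18) and *GLS2* (0.17) with local centring, and for *VGLL4* with a library left out (-0.035 to 0.098). The core kinase list had 6 calls and the STRIPAK list 2 without the trend. *POU2F3* was higher with quantile normalization (0.28, adjusted p = 0.00199) and with equal totals (0.15, adjusted p = 0.0463). Equal totals moved the calls over all genes from 2917 higher and 3244 lower to 3538 and 2657, with a median log2 fold change of 0.06. No paired analysis was possible because the labels give the groups different replicate numbers, 1 to 3 and 7 to 9, and do not say which libraries share an extraction. Depth limits what can be said of *TEAD2* and of small differences in *CCN2*, and the interval of *WWTR1* is the widest of the members tested.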

Other observations

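Neuroendocrine genes moved in the same comparison as *YAP1*. Of 7 markers of neuroendocrine SCLC 4 were tested and all 4 fell in resistant cells, against 19.8% of all genes tested. The summed value of the 7 was between 7233 and 8762 in parental and between 1476 and 1702 in resistant libraries. *INSM1*, a neuroendocrine transcription factor, fell from 6091 ± 571 to 1253 ± 114 (SD, n = 3; log2 fold change -2.28, limma adjusted p = 1.64e-07). The granule gene *CHGA* had values of 306, 247 and 210 in parental and of 12.2, 9.88 and 16.4 in resistant libraries. Of 8 tuft-like markers, all tested, 5 rose and 2 fell, so that 87.5% were called against 37.7% of all genes tested. Those that fell were *AVIL*, from 20954 to 12018, and *ASCL2*, from 8826 to 6376. *IRAG2*, from 15343 to 25744, *SOX9*, *GFI1B*, *TRPM5* and *CHAT* rose. The summed value of the 8 lay between 86252 and 88929 in parental and between 91573 and 93578 in resistant libraries. Of 5 leukocyte markers 1 was tested and it did not pass the threshold, and of 5 basal or squamous markers 0 reached the minimum mean. Whether these changes and that of *YAP1* are related was not tested.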
